A study of Homo sapiens with 6 samples.

Results

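OAS2, IFIT3, IFIT5, MX2, IFI44, IFI44L, CMPK2 and APOL6 are interferon-induced effector genes of the antiviral response, and they are 8 of the 1099 genes in the deposited table. They were found by their gene names, and all 8 names matched 1 row each. The genes had been chosen by their values in these same libraries: the table lists only genes with small p-values in the comparison of extract with vehicle, and the 8 were taken from those that were higher with extract. Differences between the groups are therefore descriptions, and the adjusted p-values and calls given for the 8 genes are no independent test of them.

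Poly(A) RNA had been sequenced from 6 libraries of cells labelled A549, a human lung adenocarcinoma line of wild-type genotype. The treated libraries (3) came from cells given F/B extract for 24 h, and the control libraries (3) from cells given DMSO as vehicle for the same time. F/B stands, by the series title, for Flos Sophorae Immaturus (flower buds of the pagoda tree) and broccoli seed, and the title places the comparison in work on tumour growth, G2/M arrest and epithelial to mesenchymal transition. All groups used 1 cell line and 1 time, no dose is stated, and nothing in the labels says whether replicates were separate cultures, so the spread between them may be technical.

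Some facts of the whole series bear on every value below. The library names in the labels begin with AGS, the name of a gastric line, although the cell line is given as A549. The gene MTAP, which A549 cells are known to lack, stood at 48.9 to 55.9 TPM in extract libraries and at 55.97 to 60.5 TPM in vehicle libraries. Of 10 lung epithelial marker genes 0 were in the table and of 11 gastrointestinal ones 4 were, while 0 of 14 leukocyte markers were in it. Absence from the table means only that a gene's p-value did not place it there, or that no test was made of it. The 4 gastrointestinal genes were lower with extract, at log2 fold changes of -0.42 for VIL1, -0.43 for CDH17, -0.78 for REG4 and -0.83 for TFF1, and of 9 fibroblast and endothelial markers COL1A1 was listed, at -0.33. Their part in the results below was not tested. Estimated counts over the 1099 genes summed to 3084337 to 3242553 in extract libraries and 3436540 to 4640114 in vehicle libraries; these sums are not the sequencing depth. In such bulk RNA, more cells that express a gene and more of its RNA per cell cannot be told apart.

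Interferons are secreted proteins that cells release on sensing viral nucleic acid. They bind receptors whose kinases phosphorylate STAT proteins, and these join IRF9 in a complex that binds the interferon-stimulated response element (ISRE) in the promoters of many genes. The products of those genes act at different steps of a viral life cycle: they degrade RNA, bind foreign RNA, block entry to the nucleus or change nucleotide pools. Many of them are also expressed at a low level in epithelial tumour lines with no infection.

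In the extract libraries all 8 genes were higher than in the vehicle libraries, by 1.21-fold for IFIT5 to 1.77-fold for OAS2 in normalised counts (estimated counts divided by a size factor per library). The 3 extract libraries all lay above the 3 vehicle libraries for 8 of 8 genes, a pattern that 34.7% of the genes in the table showed in this direction. The median log2 fold change of the 8 genes was 0.66, against -0.22 over the 1099 genes of the table and 0.29 over the 387 of them that were higher with extract. The quasi-likelihood test of edgeR called 7 of the 8 higher (adjusted p under 0.05), and 28.9% of the table was called in that direction. By the authors' deposited table, 7 of the 8 had an adjusted p under 0.05, and 33.4% of the table did so and was higher with extract. Because the genes were chosen on this contrast, nothing is read from these counts.

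**Figure D1:**
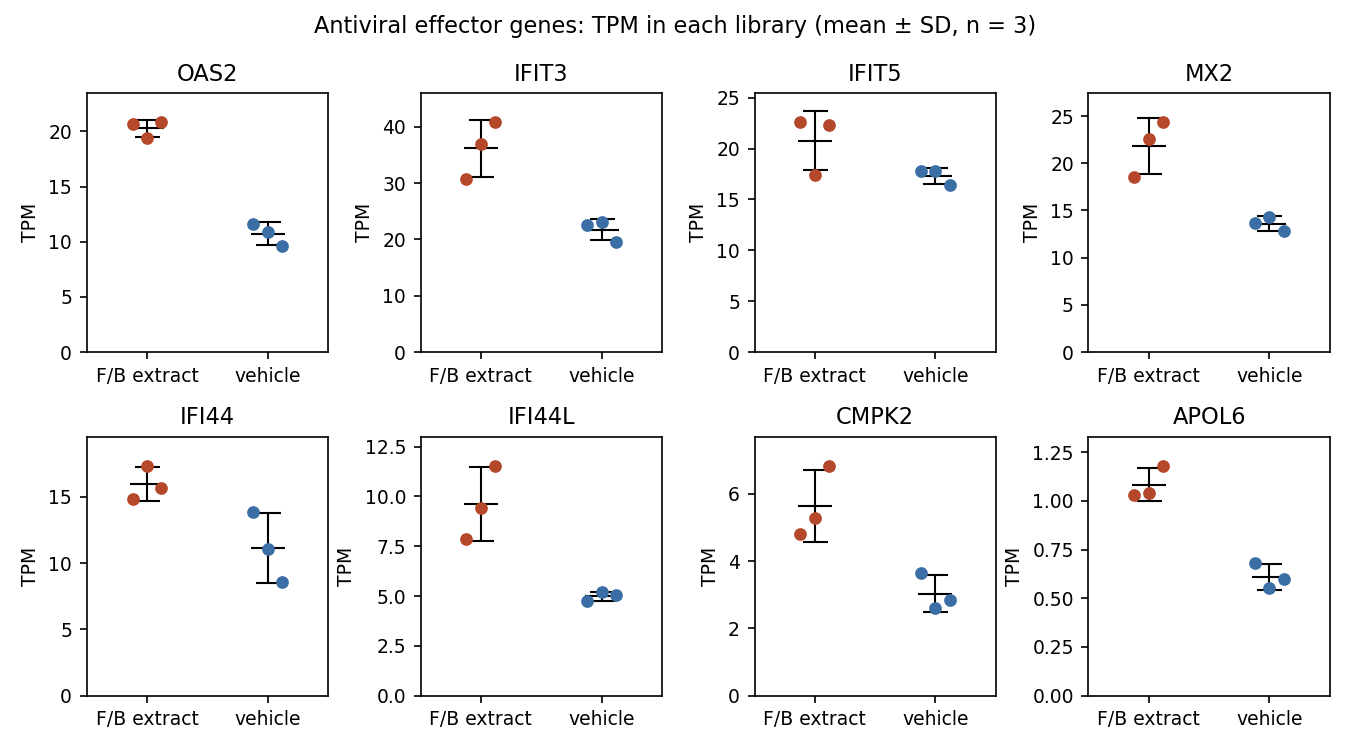
TPM (vertical axes, each from 0) of the 8 genes in each of the 3 F/B extract and 3 vehicle libraries (points), with mean and SD as black bars. The groups are apart in 7 genes and overlap in IFIT5, where extract replicate 2 stood at 17.43 TPM. The share of the whole table with groups apart in TPM is not given here, so nothing is read from this count.

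OAS2 (ENSG00000111335) encodes an oligoadenylate synthetase, an enzyme that is switched on by double-stranded RNA and makes short adenylate chains that activate the nuclease RNase L. It lies on GRCh38 chromosome 12 from 112978395 to 113011723 on the plus strand (GENCODE 29). Its level was 20.64, 19.39 and 20.82 TPM in extract replicates 1 to 3, against 11.65, 10.92 and 9.65 TPM in vehicle replicates 1 to 3. The lowest extract library was 1.56 times the highest vehicle library in normalised counts, the widest gap of the 8 genes. Normalised counts averaged 970.49 ± 50.9 with extract and 548.98 ± 51.3 with vehicle (SD, n = 3 each), which gave a log2 fold change of 0.82 (SE 0.08).

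OAS3, the neighbouring synthetase gene on the same chromosome, was in the table as well, whereas OAS1 and OASL were not. It stood at 89.57, 93.65 and 89.52 TPM with extract and at 72.91, 73.85 and 73.12 TPM with vehicle, a log2 fold change of 0.27 (SE 0.05) in normalised counts. OAS3 was thus the more abundant of the pair in TPM, and OAS2 the one with the larger fold. The TPM ratio of OAS2 to OAS3 was 0.223 ± 0.0142 in extract libraries and 0.147 ± 0.0140 in vehicle libraries (SD, n = 3 each), and its ranges did not overlap.

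IFIT3 (ENSG00000119917) and IFIT5 (ENSG00000152778) belong to the IFIT family, proteins built of tetratricopeptide repeats. IFIT5 binds RNA that carries a triphosphate at its 5′ end, and IFIT3 is a partner that strengthens the binding of capped viral RNA by IFIT1. Both lie in the IFIT cluster on the plus strand of chromosome 10, IFIT3 from 89327894 to 89340971 and IFIT5 from 89414586 to 89421001 (GRCh38, GENCODE 29). IFIT3 had the highest level of the 8 genes, with 30.76, 36.89 and 40.8 TPM in extract replicates 1 to 3, against 22.49, 23.18 and 19.62 TPM in vehicle replicates 1 to 3. All extract libraries were above all vehicle libraries. In normalised counts IFIT3 averaged 935 ± 100 with extract and 596 ± 62.5 with vehicle (SD, n = 3 each), which gave a log2 fold change of 0.65 (SE 0.10).

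IFIT5 was at 22.58, 17.43 and 22.31 TPM in extract replicates 1 to 3, against 17.82, 17.78 and 16.44 TPM in vehicle replicates 1 to 3. In TPM the groups overlapped, since extract replicate 2 lay below vehicle replicates 1 and 2. In normalised counts they did not overlap, with 677, 636 and 720 in extract libraries against 598, 556 and 532 in vehicle libraries, but the lowest extract library was only 1.06 times the highest vehicle one. Its log2 fold change of 0.27 (SE 0.07) was the smallest of the 8, and it was the 1 gene not called by edgeR (adjusted p = 0.0511, and 0.00334 to 0.222 over the other settings). The authors' deposited table gives it an adjusted p of 0.0532.

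IFIT1, which binds capped RNA, lies between the pair and was in the table, while IFIT2 and IFIT1B were not. It was at 37.78, 40.82 and 46.59 TPM with extract and at 32.37, 31.51 and 29.45 TPM with vehicle, a log2 fold change of 0.35 (SE 0.06) in normalised counts. The 3 family members in the table thus differed in size, from 0.27 in IFIT5 to 0.65 in IFIT3. The TPM ratio of IFIT3 to IFIT1 was 0.865 ± 0.0458 with extract and 0.699 ± 0.0349 with vehicle (SD, n = 3 each). IFIT genes resemble each other in sequence, and IFIT3 was the only one of the 8 genes whose estimated counts were not whole, in 3 of 6 libraries (tolerance 1e-09). Whether reads were shared between IFIT genes was not tested, and IFIT values are uncertain to that extent.

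Promoter windows of the members are shown because the ISRE is the element through which interferon acts on such genes. The members were picked as interferon-induced genes, so the share of windows that hold it is no independent feature of them. RefSeq promoters (GRCh38.p14, 250 bases before to 50 after each annotated start) were matched by symbol for 5 of the 8 genes, namely IFIT3, IFIT5, IFI44, IFI44L and CMPK2; OAS2, MX2 and APOL6 had no entry. The motif searched was GAAANNGAAA, the core of the ISRE, on both strands, where it reads TTTCNNTTTC on the other one. Matches that overlap each other were counted separately. It occurred in the windows of 4 of the 5 genes, and in those of 4.38% of 27305 genes in all (3.57% of 35116 windows). Of the other interferon genes in the table described below, 26 had a window and 17 of these held the motif (65.4%). A match is a description of letters and not a site of binding in these cells.

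The windows of the IFIT pair follow, 5′ to 3′ on the gene's strand, from 250 bases before the start to 10 after it, with the motif in capitals. IFIT3 has a second annotated start upstream of the one shown, whose window also held 2 matches. The IFIT3 window is chr10:89332279-89332538 and the IFIT5 window chr10:89414318-89414577, both on the plus strand.
IFIT3 promoter: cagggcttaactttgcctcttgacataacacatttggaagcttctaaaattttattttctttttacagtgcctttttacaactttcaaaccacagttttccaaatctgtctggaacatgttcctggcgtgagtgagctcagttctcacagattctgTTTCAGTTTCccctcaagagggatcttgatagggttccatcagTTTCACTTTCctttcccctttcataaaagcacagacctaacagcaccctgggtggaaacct
IFIT5 promoter: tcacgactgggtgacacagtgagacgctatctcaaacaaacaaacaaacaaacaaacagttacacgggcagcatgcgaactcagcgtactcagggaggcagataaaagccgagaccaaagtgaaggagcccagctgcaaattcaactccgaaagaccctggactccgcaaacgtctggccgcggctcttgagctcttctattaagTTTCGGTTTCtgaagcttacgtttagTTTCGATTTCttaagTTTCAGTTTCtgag

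With -1 as the base just before the start, the IFIT3 matches began at bases -94 and -51. IFIT5 held 3 matches, which began at bases -45, -19 and -4.

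IFI44 (ENSG00000137965) and IFI44L (ENSG00000137959) are neighbours and paralogs on the plus strand of chromosome 1, from 78649796 to 78664078 and from 78619922 to 78646145 (GRCh38, GENCODE 29). They encode cytoplasmic proteins that interferon induces strongly and whose biochemical role is less well defined than that of the enzymes above. IFI44L was at 7.88, 9.43 and 11.54 TPM in extract replicates 1 to 3, against 4.76, 5.2 and 5.03 TPM in vehicle replicates 1 to 3. Its extract libraries were spread (coefficient of variation 18.4% in normalised counts) and its vehicle libraries were not (6.80%), and the groups did not overlap. Normalised counts averaged 279 ± 51.3 with extract and 175 ± 11.9 with vehicle (SD, n = 3 each), which gave a log2 fold change of 0.68 (SE 0.14).

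IFI44 showed the opposite spread. It was at 14.85, 17.35 and 15.67 TPM in extract replicates 1 to 3, against 13.86, 11.07 and 8.55 TPM in vehicle replicates 1 to 3, and the coefficient of variation of normalised counts was 10.6% with extract and 22.1% with vehicle. The groups did not overlap, but vehicle replicate 1 came close, the lowest extract library being 1.15 times as high in normalised counts. These averaged 215 ± 22.9 with extract and 142 ± 31.4 with vehicle (SD, n = 3 each), which gave a log2 fold change of 0.61 (SE 0.16).

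The promoter windows of this pair are chr1:78620198-78620457 for IFI44L and chr1:78649539-78649798 for IFI44, both on the plus strand of GRCh38.p14. They show how the motif is placed in 2 adjacent paralogs. The folds of this pair were close in normalised counts (1.6 for IFI44L and 1.52 for IFI44). In TPM they were less alike (1.92 and 1.43).
IFI44L promoter: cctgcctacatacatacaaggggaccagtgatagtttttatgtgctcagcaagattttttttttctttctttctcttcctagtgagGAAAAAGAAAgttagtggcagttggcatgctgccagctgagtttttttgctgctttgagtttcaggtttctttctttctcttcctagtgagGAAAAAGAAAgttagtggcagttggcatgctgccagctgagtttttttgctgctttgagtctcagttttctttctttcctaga
IFI44 promoter: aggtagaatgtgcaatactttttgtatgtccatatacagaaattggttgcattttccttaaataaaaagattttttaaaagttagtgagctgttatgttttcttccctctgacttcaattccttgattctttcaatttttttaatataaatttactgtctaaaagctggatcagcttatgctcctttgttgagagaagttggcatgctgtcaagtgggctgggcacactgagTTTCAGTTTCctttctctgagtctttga

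The IFI44L window held 2 matches on the gene's strand, which began at bases -164 and -73. Each lies in 1 copy of a stretch of 85 bases that occurs there 2 times without a difference, the first copy from base -189 and the second from base -98. The longest exact repeat in the windows of the other 4 genes was 16 bases, in CMPK2. IFI44 held 1 match, on the other strand, at base -18 from the start shown and at base -60 from another annotated start of the gene.

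**Figure D2:**
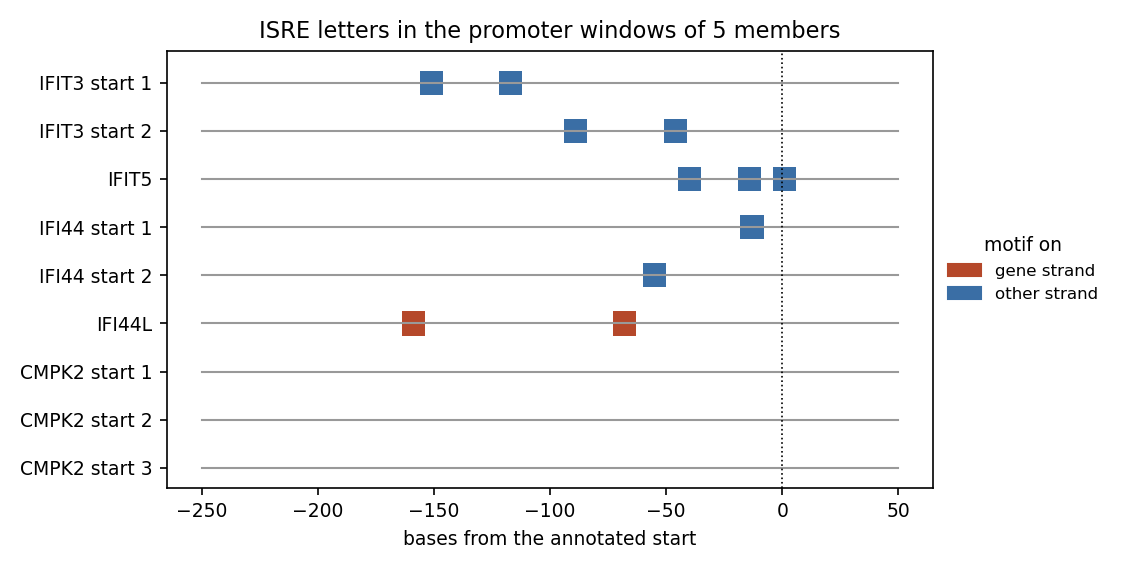
Position of the ISRE letters (boxes, 10 bases wide) in the RefSeq promoter windows of 5 members, in bases from the annotated start (dotted line), with 1 line for each annotated start. Boxes begin between bases -164 and -4 in IFIT3, IFIT5, IFI44 and IFI44L, and the 3 windows of CMPK2 hold none.

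MX2 (ENSG00000183486) encodes a dynamin-like GTPase at the nuclear envelope that hinders lentiviruses. It lies on the plus strand of chromosome 21 from 41361943 to 41409390 (GRCh38, GENCODE 29). It was at 18.53, 22.58 and 24.34 TPM in extract replicates 1 to 3, against 13.68, 14.36 and 12.8 TPM in vehicle replicates 1 to 3, with no overlap. Normalised counts averaged 700.2 ± 24.3 with extract and 490 ± 48.6 with vehicle (SD, n = 3 each), which gave a log2 fold change of 0.52 (SE 0.08). With extract its coefficient of variation in normalised counts, 3.47%, was the smallest of the 8 genes and below the counting error of 3.79% to 3.97%. In TPM the same libraries were more spread, at 21.82 ± 2.98 (SD, n = 3). MX1, the paralog next to it, was not in the table.

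CMPK2 (ENSG00000134326) encodes a mitochondrial kinase that phosphorylates pyrimidine nucleotides. It lies on the minus strand of chromosome 2 from 6840570 to 6866635 (GRCh38, GENCODE 29), beside RSAD2, whose product viperin uses one of those nucleotides and which was not in the table. It was at 4.8, 5.27 and 6.83 TPM in extract replicates 1 to 3, against 3.65, 2.61 and 2.84 TPM in vehicle replicates 1 to 3. Normalised counts averaged 135 ± 17.9 with extract and 81.2 ± 17.4 with vehicle (SD, n = 3 each), which gave a log2 fold change of 0.74 (SE 0.18), the largest SE of the 8. Its vehicle libraries held 77 to 95 counts, for which counting alone gives an error of 10.3% to 11.4%, and their coefficient of variation was 21.4%.

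APOL6 (ENSG00000221963) is a member of the intracellular branch of the apolipoprotein L family, lipid-binding proteins that have been linked to cell death. It lies on the plus strand of chromosome 22 from 35648395 to 35668409 (GRCh38, GENCODE 29), and no other gene of the family was in the table. It had the lowest level of the 8 genes, with 1.03, 1.04 and 1.18 TPM in extract replicates 1 to 3, against 0.68, 0.55 and 0.6 TPM in vehicle replicates 1 to 3. The low TPM goes with a deposited length of 10065 bases, and the gene held 117 to 125 counts in extract libraries and 78 to 85 in vehicle libraries. Normalised counts averaged 128 ± 4.91 with extract and 75.9 ± 7.67 with vehicle (SD, n = 3 each), which gave a log2 fold change of 0.77 (SE 0.13). The vehicle spread of 10.1% was no larger than the counting error of 10.8% to 11.3% in those libraries.

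Per length, the order of the vehicle levels was IFIT3 at 21.76 TPM, IFIT5 at 17.35, MX2 at 13.61, IFI44 at 11.16, OAS2 at 10.74, IFI44L at 4.997, CMPK2 at 3.033 and APOL6 at 0.61 (means of 3 libraries). Neighbours in this order had ranges apart, except MX2 and IFI44, and IFI44 and OAS2. With extract the order was IFIT3 at 36.15 TPM, MX2 at 21.82, IFIT5 at 20.77, OAS2 at 20.28, IFI44 at 15.96, IFI44L at 9.617, CMPK2 at 5.633 and APOL6 at 1.083. There MX2 and IFIT5, and IFIT5 and OAS2, overlapped in range. In TPM, OAS2 and IFIT5 were closer in level with extract. The TPM ratio of OAS2 to IFIT5 was 0.987 ± 0.109 in extract libraries and 0.618 ± 0.0336 in vehicle libraries (SD, n = 3 each). Normalised counts showed the reverse, with means further apart with extract, at 970.49 for OAS2 and 677.33 for IFIT5. With vehicle these means were 548.98 for OAS2 and 561.94 for IFIT5. By the authors' lengths, normalised counts per kilobase put 5 of the 8 genes at the same vehicle rank. Summed over the 8 genes the level was 121.1, 129.4 and 143.5 TPM in extract replicates 1 to 3, against 88.6, 85.7 and 75.5 TPM in vehicle replicates 1 to 3.

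The vehicle libraries ranked alike for most of the 8 genes, and the extract libraries less so in normalised counts. Relative to its own vehicle mean, the median of the 8 was 1.42, 1.61 and 1.73 in extract replicates 1 to 3 and 1.09, 0.989 and 0.907 in vehicle replicates 1 to 3. Extract replicate 3 was the highest extract library for 5 of the 8 genes in normalised counts and for 6 in TPM, but in normalised counts it was the lowest for MX2 and IFI44. The lowest extract library was replicate 1 for 3 genes, replicate 2 for 3 and replicate 3 for 2. Vehicle replicate 1 was the highest vehicle library for 7 of the 8, with IFIT3 as the exception, and for 5 in TPM. Vehicle replicate 3 was the lowest for 6 of the 8 and for 5 in TPM. Over all genes of the table the same medians were 0.886, 0.864 and 0.856 in extract libraries and 0.993, 1.01 and 1.00 in vehicle libraries. After the group means were taken off, 12 of the 28 pairs of members had a Pearson r above 0.5 over the 6 libraries and 16 did not, 1 of them being below 0 (median 0.45). Pairs share their libraries and depth, so these are descriptions.

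**Figure D3:**
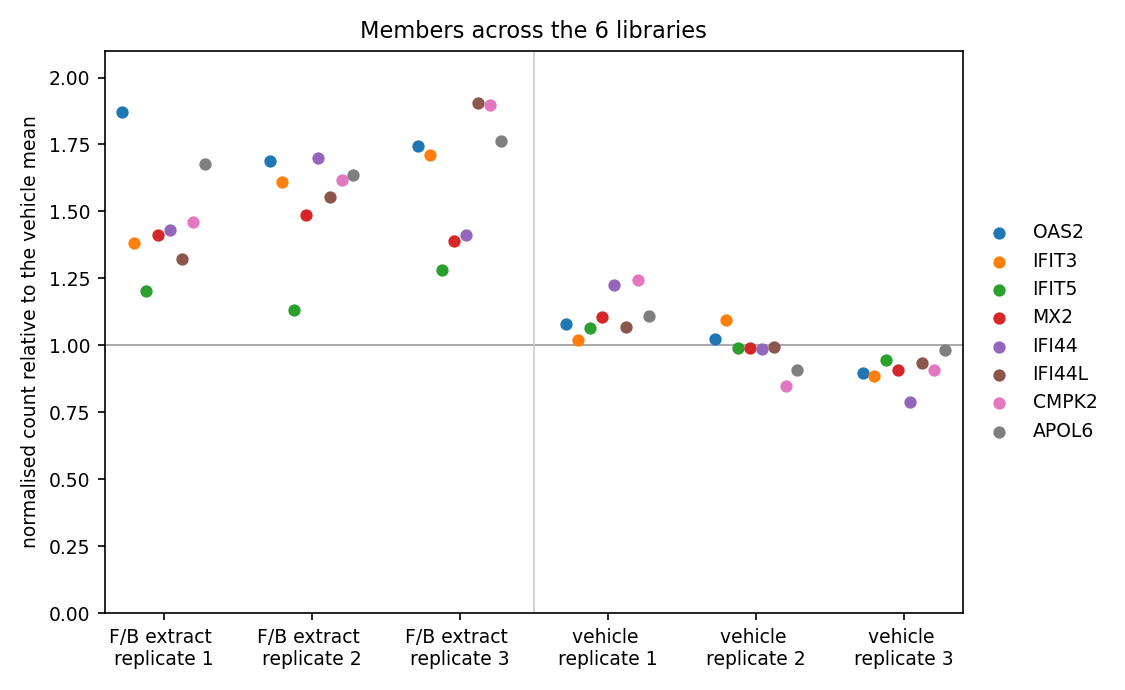
Normalised count of each of the 8 genes (colours) relative to its mean over the vehicle libraries (vertical axis, 1 marks that mean) in the 3 F/B extract and 3 vehicle libraries. Extract libraries lie between 1.13 and 1.91, and vehicle libraries between 0.787 and 1.24.

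Among the genes whose TPM ran most like the mean of the 8 standardised profiles, by Pearson r of log2(TPM + 1) over the 6 libraries, were ERMP1 (0.997), IFIH1 (0.993), LRRCC1 (0.992) and HEXA (0.992). IFIH1 is a sensor of double-stranded RNA and HEXA a lysosomal enzyme subunit. An r of at least 0.9 was reached by 226 of the 1091 other genes (20.7%), since every gene in the table was selected on the same difference between groups. The 8 members are themselves part of the mean profile, which raised their r beforehand. Of them 6 reached 0.9, and IFI44 (0.865) and IFIT5 (0.759) did not.

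Counts and TPM did not give the same fold for every member. On the TPM scale the ratio of extract to vehicle was 1.89 for OAS2, 1.66 for IFIT3, 1.20 for IFIT5, 1.60 for MX2, 1.43 for IFI44, 1.92 for IFI44L, 1.86 for CMPK2 and 1.78 for APOL6. In IFI44L this is more than the 1.60-fold of normalised counts, and in IFI44 it is less than the 1.52-fold. On the scale that the TPM values imply, the median log2 fold change of the whole table is 0.082 higher, a shift in the direction of the IFI44L gap and against that of IFI44. Apart from this shift, the scales differ by each gene's own count per TPM, a quantity that by the definition of TPM follows the effective transcript length used for that library. Scaled per library and set to a vehicle mean of 1, it averaged 0.875 in extract libraries for IFI44L and 1.12 for IFI44, with no overlap between the groups, and 0.99 to 1.01 for OAS2, IFIT3 and APOL6. For IFIT5 it was 0.945, 1.19 and 1.10 in extract replicates 1 to 3, and the second of these goes with the low TPM of that library.

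**Figure D4:**
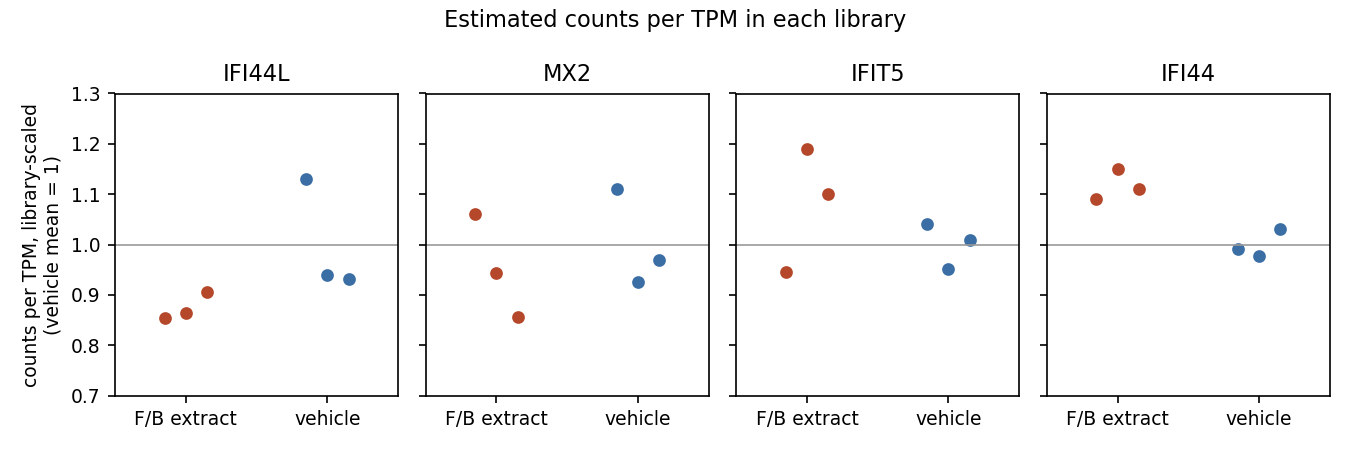
Estimated counts per TPM of 4 members in each library (points), divided by a library factor and set to a vehicle mean of 1. IFI44L was at 0.855 to 0.906 with extract and 0.932 to 1.13 with vehicle, and IFI44 at 1.09 to 1.15 with extract and 0.977 to 1.03 with vehicle.

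The rest of the pathway was read from lists of 113 other genes, chosen with earlier results of these data known. Of these, 29 were in the table, and all 29 had a positive log2 fold change (median 0.34). By edgeR's test 25 of the 29 were called higher and 0 lower, against 28.9% of the table called higher. The 29 had been selected into the table by the same comparison, so the share is no separate support for the members. Leaving out extract replicate 2 left 8 calls, leaving out vehicle replicate 2 left 9 and leaving out vehicle replicate 3 left 7, and a block for the replicate number left 9.

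By role, 0 of 9 interferon genes, 0 of 6 receptor genes and 0 of 4 chemokine genes were in the table. Of 8 sensors of foreign RNA or DNA 3 were, and all were called higher: IFIH1 at a log2 fold change of 0.48 (SE 0.05), DDX58, the sensor RIG-I, at 0.40 (SE 0.05) and EIF2AK2, the kinase PKR, at 0.29 (SE 0.07). Of 7 transcription factors 4 were listed and 3 were called higher, among them STAT2 at 0.47 and IRF2 at 0.37, while IRF9 at 0.20 was not (edgeR adjusted p = 0.0530). Of 7 adaptors and kinases JAK1 was listed, at 0.17 and not called, and of 4 inhibitors USP18, which removes ISG15 from proteins and dampens the receptor, was called at 0.42 (SE 0.08).

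Of 55 other antiviral effectors 18 were listed and 16 were called higher. The most abundant were IFI6, a protein of the endoplasmic reticulum and mitochondria, at 920.3 TPM with extract and 706 TPM with vehicle (log2 fold change 0.27), LGALS3BP, a secreted glycoprotein, at 280.3 and 221 TPM (0.25), the RNA-editing enzyme ADAR at 203.5 and 175 TPM (0.15) and the ISG15-conjugating enzyme UBE2L6 at 99.7 and 77.8 TPM (0.27), with extract first in each pair. SP100 at 0.24 and SLFN5 at 0.27, named here after their values were seen, were not called. Of 13 genes of antigen presentation TAP1 at 0.34 and TAPBP at 0.27 were listed and called. Of these 29 genes DDX60L, also named after its value was seen, had the largest log2 fold change, 0.54 (SE 0.12), which was below those of 6 of the 8 members.

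**Figure D5:**
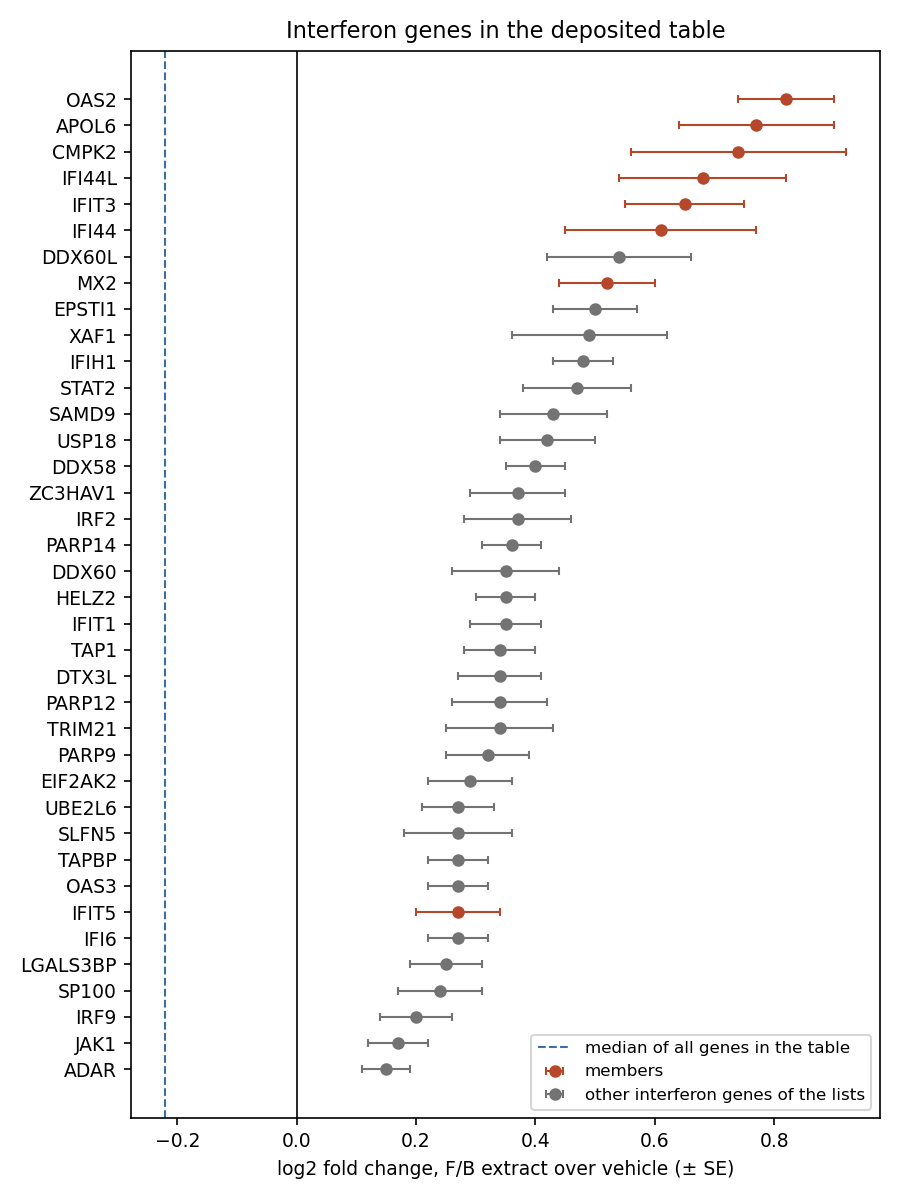
Log2 fold change of F/B extract over vehicle (horizontal axis, bars are SE) of the 8 members and of 30 of the 31 other genes of their families and of the interferon lists in the table. Members fill the upper end except MX2 at 0.52 and IFIT5 at 0.27, and the dashed line marks the median of all genes in the table, -0.22.

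The neighbourhood of the members was looked at in the GENCODE 29 order of protein-coding genes, 3 on each side. The 8 members had 42 different neighbours, of which 9 were in the table, 4 of them members themselves. OAS3 and IFIT1 are described above, and the others were LIPA, a lysosomal lipase beside the IFIT cluster, at a log2 fold change of 0.33, BACE2 beside MX2 at 0.21, and ID2 near CMPK2 at -0.44. A further 7 neighbours belong to the lists and were not in the table, namely OAS1, IFIT2, IFIT1B, MX1, RSAD2, APOL5 and APOL3. In the annotation that the authors deposited with the table, 4 of the 8 members (OAS2, IFIT5, MX2 and IFI44L) carried the term defence response to virus, as did 2.27% of the genes in the table, these 4 included. The members were picked as antiviral genes, so their share is no independent feature of them.

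The calls of 4 members, but no direction, were lost in fits that left out a single library. When extract replicate 2 was left out, edgeR called 4 of the 8 (OAS2, IFIT3, MX2 and APOL6), and when extract replicate 3 was left out it called these and IFI44L. Leaving out vehicle replicate 2 left OAS2, IFIT3 and MX2, and leaving out vehicle replicate 3 left the same 3 and APOL6. Such losses were not particular to the members. Of the 25 other interferon genes called in the main fit, the same fits called 8, 17, 9 and 7, in this order. Fewer libraries lower the power, and the share of the whole table called in these fits is not given here.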

How the data were processed

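RNA-seq values of 6 libraries came as 1 table of the whole series. The authors deposited estimated counts per gene, TPM, and their own comparison (p-values, adjusted p-values and a log2 fold change of vehicle over extract) for 1099 genes, which is 9.74% of the 11289 genes that the adjusted p-values imply were tested; the largest deposited p-value was 0.00535. Per the submitters' processing notes, reads were handled on GRCh38.p13. Which aligner and counting program made the values is not given in the sources used here.

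Estimated counts were rounded to whole numbers, and 31.8% to 35.9% of them per library were not whole. Each library was divided by the size factor that the authors' deposited fold changes imply (0.919 to 0.959 in extract and 0.940 to 1.23 in vehicle libraries). edgeR 4.0.16 (R 4.3.3) fitted its quasi-likelihood model to all 1099 genes, with Benjamini-Hochberg adjustment over 11289 and a threshold of 0.05; the SE of a log2 fold change is its size over the square root of F. The code was tested on simulated data. DESeq2 1.42.0, limma 3.58.1 with voom, other scalings, filters and left-out libraries were alternatives. Fold changes are extract over vehicle. Only genes with small p-values were in the table, so values of the spread are borrowed from selected genes. The precision of a count is limited by its size, and counting errors cover counting alone.

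The members and gene lists were chosen with earlier results of these data known. Of each list, at most the 4 genes of highest mean TPM are named, with all genes of the members' families and the 5 most like profiles, except 1 gene that is not reported here; neighbours are named by position. Protein sequences were not analysed here.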

Additional observations from a re-analysis of the deposited data

How the results depend on the processing

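Over 16 other settings no member turned its direction. In normalised counts the groups stayed apart for 8 of 8 with each of 4 other scalings. Leaving out 1 library kept the size factors, so it could not bring separate groups into overlap, and its count of 8 was fixed beforehand. The number of members called by edgeR was 7. It was 8 with each of 4 other scalings, with DESeq2, with limma-voom and with adjustment over the listed genes alone. That last adjustment is lenient, since only genes with small p-values are in the table. The DESeq2 fit used the size factors implied by the authors' fold changes, so its folds are no separate check. Both low-count filters removed 0 genes, so the fits with no filter or a stricter one repeat the main fit, with 7 called. The median log2 fold change of 0.66 was 0.82 with TMM, 0.84 with DESeq2 size factors and 0.80 with sums over the listed genes, scalings that shift the median of all genes by 0.154, 0.174 and 0.136. Under a replicate block 4 members were called (OAS2, IFIT3, MX2 and APOL6); same-numbered libraries had correlations of -0.231, -0.0102 and -0.0324, so the numbers were not taken as pairs. Leaving out 1 library gave 3 to 8 called members and medians of 0.60 to 0.75. The share of the whole table called in each of the other settings is not given here, so nothing is read from these counts of members. Without extract replicate 1, 2 or 3 the called members were 7, 4 and 5, and without vehicle replicate 1, 2 or 3 they were 8, 3 and 4. OAS2, IFIT3 and MX2 kept their calls in all 16 settings, the unchanged filter fits among them. IFIT5 was called in 8, among them the adjustment over the listed genes alone. Fewer samples lower the power of these fits. Of the other interferon genes 25 were called, 9 with the replicate block, and 7 to 26 with 1 library left out. Counting limits APOL6 and CMPK2 most, at 77 to 144 counts.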
